A study of Mus musculus with 12 samples.

Results

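The unfolded protein response genes examined here were 10 genes picked by symbol in the table of read counts, Hspa5, Hsp90b1, Pdia4, Sdf2l1, Creld2, Xbp1, Atf4, Ddit3, Herpud1 and Dnajb9, of 54134 genes in that table. All 10 were found, and all 10 were among the 15585 genes with enough reads to be tested. They were chosen with earlier results of these data known, so that their counts beside all genes are a description. The genes were measured by RNA-seq in inguinal white adipose tissue (iWAT, the subcutaneous fat pad of the groin) of male C57BL/6J mice, 6 AAV-GFP and 6 AAV-Notum. Every mouse received an adeno-associated virus by tail vein at 8 weeks of age, carrying either GFP (the control protein) or Notum, a secreted enzyme that inactivates Wnt ligands. Both viruses used the thyroxine binding globulin promoter, which is active in liver, so that the fat itself was not the intended site of expression. The mice then ate chow for 4 weeks and were fasted for 4 h before tissue collection. RNA came from whole iWAT, so that fewer cells of a type and less RNA per cell cannot be told apart. The comparison asks whether genes that respond to misfolded protein in the endoplasmic reticulum (ER) differ in the fat of mice whose liver overexpresses Notum.

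The unfolded protein response is the programme by which a cell raises the folding capacity of the ER when unfolded protein builds up there. The sensors are the kinase and nuclease IRE1, which splices Xbp1 mRNA, the membrane-bound factor ATF6, and the kinase PERK, which slows translation and favours that of Atf4. Adipocytes secrete adiponectin, leptin and matrix proteins, all of which fold in the ER.

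The libraries held 15266635 to 21618860 reads on genes in AAV-GFP mice (median 18378579) and 14711113 to 17838229 in AAV-Notum mice. The adipocyte markers, Adipoq and Plin1 among them, were present in every library (mean log2 CPM of the 10 markers 10.5 to 11.6 in both groups, CPM being counts scaled to the size of the library). The median of this mean was 11.35 in AAV-GFP mice and 10.98 in AAV-Notum mice. By the numbers in their labels, AAV-GFP mice S_2011 and S_2014 stood apart from the other 10 mice in their lymphoid markers, with a mean log2 CPM of -0.12 and -0.60 over 15 B and T cell genes against 3.64 to 7.10 in the others. AAV-GFP mouse S_2011 also had the lowest RNA integrity number (RIN), 5.7, against up to 7.6 in the rest of its group and 6.9 to 7.4 in AAV-Notum mice. RNA of AAV-GFP mouse S_2012 was isolated on a later day than that of the others, and without it the log2 fold change of Hspa5 was -0.28. Notum mRNA in iWAT was at 1 to 17 reads in AAV-GFP mice, at 8 to 16 reads in 4 AAV-Notum mice and at 560 and 433 reads in AAV-Notum mice S_2032 and S_2041. Reads in the fat are no check of the labels, since the virus targets the liver.

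The ER folding and degradation genes Hspa5, Hsp90b1, Pdia4, Creld2, Sdf2l1 and Herpud1 had lower mean levels in AAV-Notum than in AAV-GFP iWAT, with differences between -19.8% (Hspa5) and -12.8% (Herpud1). Xbp1 had a mean difference of -11.4% with a wide spread, and Atf4, Ddit3 and Dnajb9 had log2 fold changes of 0.10, 0.03 and 0.06. None of the 10 genes passed the threshold of 0.05 after adjustment over all genes (edgeR's quasi-likelihood test), where 0.0513% of all genes did. Before adjustment Hspa5 and Creld2 were under 0.05, both lower in AAV-Notum mice. That is 2 of 10 genes, and 9.54% of all genes tested were lower at the same threshold. No member was higher, and 4.64% of all genes were. With DESeq2, which calls more genes, 1 member (Hspa5) passed an adjusted threshold of 0.05 as lower, and 2.61% of all genes did, while 0 members and 0.584% of all genes were higher. A two-sided exact permutation test over mice put the same 2 genes under 0.05 before adjustment, and by that test 7.79% of all genes were lower and 5.39% higher. After adjustment that test could call no gene, since the smallest adjusted p it gave was 0.198. For no member were the groups apart, which held for 0.693% of all genes in the lower direction and 0.398% in the higher. The log2 fold change was below 0 for 7 of 10 members and for 48.8% of all genes tested, and its median was -0.20 for the members and 0.0077 for all genes.

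**Figure D1:**
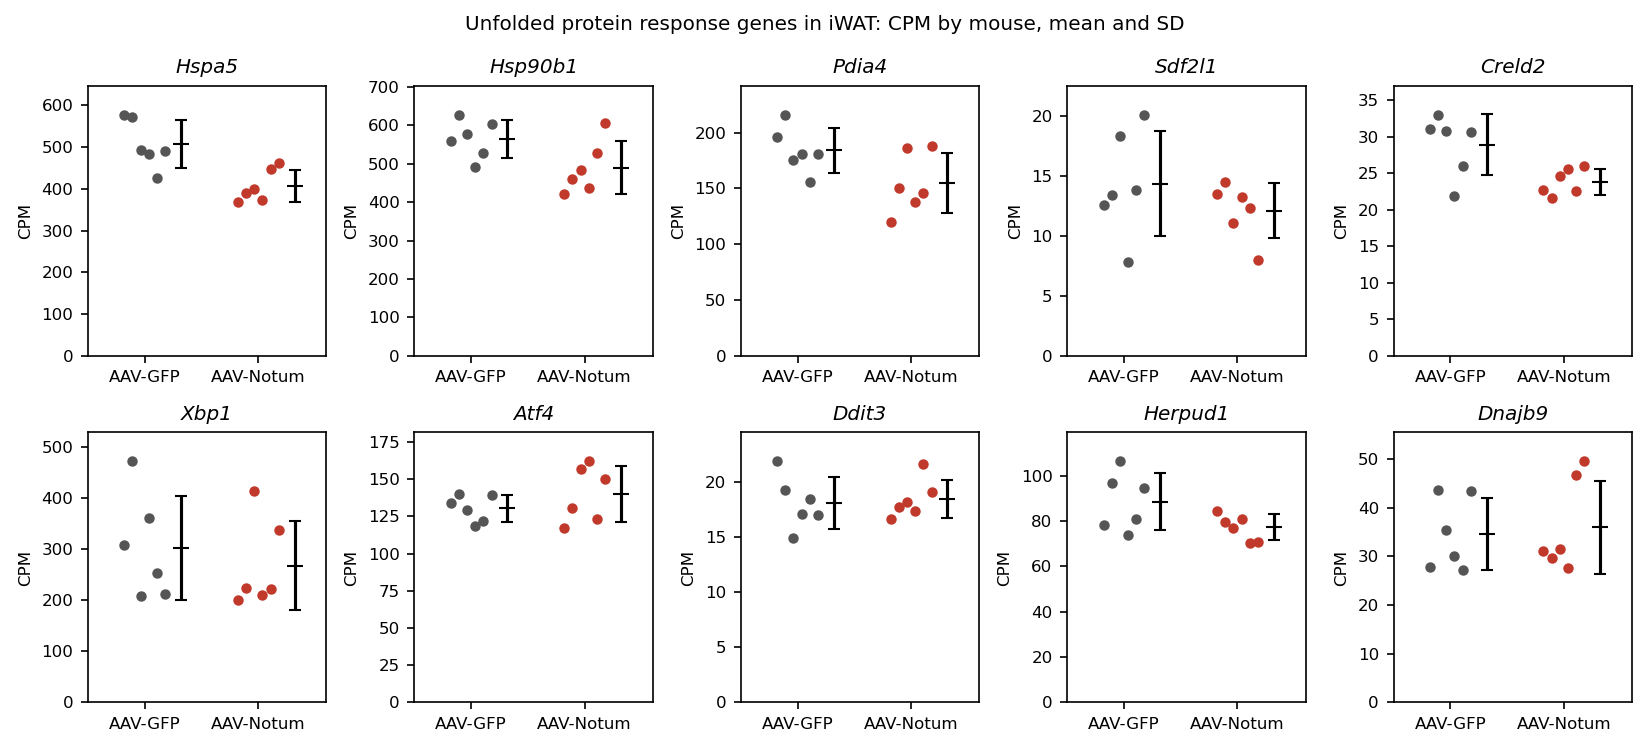
Level of each of the 10 genes in each mouse, as counts scaled to library size (CPM, from 0), with AAV-GFP mice in grey and AAV-Notum mice in red; the bars give mean and SD (n = 6). The AAV-GFP mean lies above all 6 AAV-Notum mice for Hspa5, Creld2 and Herpud1, and the groups overlap in every panel.

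Where the transcripts of these genes begin, 4 of the 10 promoters hold the letters of a known ER stress element, and they are shown because they are the stretch through which ATF6 and XBP1 are known to act on Hspa5 and its relatives. The ER stress response element (ERSE) was searched as CCAAT, 9 bases of any kind and CCACG, and the second form (ERSE-II) as ATTGG, 1 base of any kind and CCACG, on both strands from 250 bases before to 50 after each start. The RefSeq promoter table (GRCm38.p6) matched all 10 members by symbol. ERSE was found in 39 of 32851 windows (0.119%) and in 3 members, Hspa5, Hsp90b1 and Creld2. ERSE-II was found in 12 windows (0.037%) and in 1 member, Herpud1. The 250 bases before the start follow, 5′ to 3′ on the strand of the gene, from chr2:34771840-34772089 (plus strand) for Hspa5, chr10:86705445-86705694 (minus strand) for Hsp90b1, chr15:88819396-88819645 (plus strand) for Creld2 and chr8:94386179-94386428 (plus strand) for Herpud1. The starts are those of RefSeq, and the windows of Hspa5 and Hsp90b1 overlap the spans of these genes given below, which are from GENCODE. Capitals mark the matches.
Hspa5: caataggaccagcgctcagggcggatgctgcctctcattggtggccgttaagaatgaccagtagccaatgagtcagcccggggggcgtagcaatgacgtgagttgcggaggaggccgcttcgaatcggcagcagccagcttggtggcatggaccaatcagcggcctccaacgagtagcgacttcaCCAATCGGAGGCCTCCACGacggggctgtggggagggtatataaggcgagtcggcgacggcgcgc
Hsp90b1: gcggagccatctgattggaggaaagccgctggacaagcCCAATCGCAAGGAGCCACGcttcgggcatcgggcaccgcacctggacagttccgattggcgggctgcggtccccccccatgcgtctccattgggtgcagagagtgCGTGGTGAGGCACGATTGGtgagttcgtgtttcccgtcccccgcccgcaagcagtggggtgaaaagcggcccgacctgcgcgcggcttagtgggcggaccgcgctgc
Creld2: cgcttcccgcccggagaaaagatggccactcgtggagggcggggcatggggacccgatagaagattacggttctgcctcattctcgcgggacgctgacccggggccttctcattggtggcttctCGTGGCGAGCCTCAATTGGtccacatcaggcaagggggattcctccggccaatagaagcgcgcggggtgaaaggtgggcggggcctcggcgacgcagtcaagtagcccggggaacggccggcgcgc
Herpud1: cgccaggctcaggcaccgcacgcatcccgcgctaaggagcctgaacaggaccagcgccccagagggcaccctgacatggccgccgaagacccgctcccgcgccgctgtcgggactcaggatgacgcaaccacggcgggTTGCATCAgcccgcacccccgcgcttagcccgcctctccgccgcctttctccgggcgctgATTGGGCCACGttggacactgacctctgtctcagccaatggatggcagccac
The Hspa5 match spans -65 to -47 from the start. Hsp90b1 has a match from -212 to -194 and another, on the opposite strand, from -107 to -89. The Creld2 match, also on the opposite strand, spans -126 to -108. In Herpud1 the ERSE-II match spans -52 to -42, and the capitals further upstream, from -112 to -105, are a composite ATF4 and C/EBP element (TGATGCAA, read on the opposite strand), which is found in 0.895% of windows. The core of the XBP1 element, TGACGTGG, is in 0.676% of windows and in 0 members. The short letters within ERSE are common, with CCAAT in 37.4% of windows and in 9 members (ERSE matches included) and CCACG in 32.8% and in 8 members. TGACGTGG also holds CCACG on its other strand. The 4 genes with an ERSE or ERSE-II match had log2 fold changes from -0.32 to -0.20 in AAV-Notum iWAT, and the other 6 members had -0.25 to 0.10, which is given as a description. Only exact letters were searched, so that near matches were not counted in any member. A match of letters is not a measured binding site, and binding was not measured here.

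The first of the chaperones of the ER lumen, Hspa5 (ENSMUSG00000026864, chromosome 2 of GRCm38, 34771970 to 34777547), encodes BiP, the Hsp70 of the ER, which also holds the sensors inactive. It ranged from 427 to 577 CPM in AAV-GFP mice (median 493) and from 368 to 462 CPM in AAV-Notum mice (median 395). The AAV-GFP mean lay above all 6 AAV-Notum mice and the lowest AAV-GFP mouse above 4 of them, while AAV-GFP mouse S_2021 lay within the AAV-Notum range. Means were 507 ± 57.4 and 407 ± 39.0 CPM (SD, n = 6). edgeR put the log2 fold change at -0.32 (standard error 0.098) with an adjusted p of 0.201, and DESeq2 gave an adjusted p of 0.0192. By the exact permutation test p was 0.00866 before adjustment. With 6032 to 10296 reads per mouse, counting error is small beside the spread between mice. Left out in turn, no mouse moved the log2 fold change of Hspa5 outside -0.36 to -0.28.

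Hsp90b1 (ENSMUSG00000020048, chromosome 10, 86690209 to 86705509) encodes the Hsp90 of the ER, a chaperone of integrins, Toll-like receptors and insulin-like growth factors. Its level ran from 492 to 627 CPM in AAV-GFP mice (median 569) and from 420 to 606 CPM in AAV-Notum mice (median 472). The lowest AAV-GFP mouse lay above 4 AAV-Notum mice, and AAV-Notum mouse S_2042 was among the highest of all. With a log2 fold change of -0.21 (standard error 0.106, edgeR adjusted p = 0.386, exact permutation p = 0.0541), the difference did not pass either test. Without AAV-Notum mouse S_2042 the value was -0.28, with an unadjusted edgeR p under 0.05. That mouse also had the highest level of skeletal muscle markers, a mean log2 CPM of 8.25 against 0.0890 at the lowest, and the part of muscle in the value was not tested. Hsp90b1 is the member whose reads differed most between the deposited tables, the normalized table resting on 82.1% to 85.9% as many reads as the count table, against 98.5% to 107% for the other 9. It shares 10.3% of its exon bases with a transcribed pseudogene on the opposite strand, 1810014B01Rik, which held 1118 reads over all mice.

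Pdia4 (ENSMUSG00000025823, chromosome 6, 47796141 to 47813430), a protein disulfide isomerase that forms and exchanges disulfide bonds, ran from 155 to 216 CPM in AAV-GFP mice (median 181) and from 120 to 188 CPM in AAV-Notum mice (median 148). The AAV-Notum mice were split, 4 of them under the lowest AAV-GFP mouse and S_2033 and S_2042 above the AAV-GFP mean. This gave a log2 fold change of -0.25 (standard error 0.120, edgeR adjusted p = 0.365, exact permutation p = 0.0649).

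Creld2 (ENSMUSG00000023272, chromosome 15, 88819646 to 88826683), an ER stress-inducible protein with disulfide isomerase activity, ran from 21.9 to 33.0 CPM in AAV-GFP mice (median 30.7) and from 21.6 to 26.0 CPM in AAV-Notum mice (median 23.7). The AAV-Notum values were close together and all below the AAV-GFP mean, and 4 AAV-GFP mice were above all of them, but AAV-GFP mice S_2014 and S_2021 lay within their range. Creld2 thus had a log2 fold change of -0.28 (standard error 0.103, edgeR adjusted p = 0.266, exact permutation p = 0.0303, DESeq2 adjusted p = 0.148). Scaled by library totals alone it was -0.23, no longer under 0.05 before adjustment. The exact permutation p of Creld2 was also above 0.05 when any of 7 mice was left out (AAV-GFP S_2011, S_2012, S_2013 and S_2022, AAV-Notum S_2031, S_2032 and S_2041), while that of Hspa5 stayed under 0.05 with any of the 12 left out.

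Sdf2l1 (ENSMUSG00000022769, chromosome 16, 17130138 to 17132383), a partner of BiP and of ER DnaJ proteins, was a low transcript with 124 to 326 reads per mouse. It ran from 7.81 to 20.1 CPM in AAV-GFP mice (median 13.6) and from 8.03 to 14.5 CPM in AAV-Notum mice (median 12.8). The AAV-GFP values were the wider, with S_2013 and S_2022 above every AAV-Notum mouse and S_2014 below all of them. Its log2 fold change of -0.24 (standard error 0.211) had an exact permutation p of 0.409. With 1 mouse left out it ran from -0.37 to -0.12, at -0.12 without AAV-GFP mouse S_2022, -0.16 without AAV-GFP mouse S_2013, -0.15 without AAV-Notum mouse S_2042 and -0.37 without AAV-GFP mouse S_2014. AAV-GFP mice S_2011 and S_2014, the pair with few lymphoid transcripts, were at 12.6 and 7.81 CPM, the lowest of their group. Without both mice the value was -0.44 (edgeR adjusted p = 0.651), and with the lymphoid marker level as a covariate it was -0.56 (edgeR adjusted p = 0.376), both under 0.05 before adjustment.

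Dnajb9 (ENSMUSG00000014905, chromosome 12, 44205559 to 44210326), the DnaJ co-chaperone of BiP that also restrains IRE1, ran from 27.3 to 43.6 CPM in AAV-GFP mice (median 32.7) and from 27.6 to 49.5 CPM in AAV-Notum mice (median 31.3). In each group 2 mice were high (S_2012 and S_2022, S_2041 and S_2042) and the others were at 35.5 CPM or less. For Dnajb9 the log2 fold change was 0.06 (standard error 0.184, exact permutation p = 0.799), with a sign that depended on which mouse was left out (-0.06 to 0.14).

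Herpud1 (ENSMUSG00000031770, chromosome 8, 94386438 to 94395377) encodes a membrane protein of the complex that moves misfolded protein out of the ER for degradation. Its level ran from 73.8 to 106 CPM in AAV-GFP mice (median 88.0) and from 70.5 to 84.7 CPM in AAV-Notum mice (median 78.2). The AAV-GFP mean lay above each AAV-Notum mouse, and 2 of these were under the lowest AAV-GFP mouse. Herpud1 had a log2 fold change of -0.20 (standard error 0.096, edgeR adjusted p = 0.368, exact permutation p = 0.0758). As for Sdf2l1, AAV-GFP mice S_2011 and S_2014 were the lowest of their group (78.5 and 73.8 CPM). Without both mice it was -0.30 (edgeR adjusted p = 0.518), and with the lymphoid covariate -0.33 (edgeR adjusted p = 0.353), again under 0.05 before adjustment.

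The 3 transcription factors of the response had log2 fold changes from -0.17 to 0.10, none of them under 0.05 before adjustment (edgeR). Xbp1 (ENSMUSG00000020484, chromosome 11, 5520659 to 5525893), the factor made active by IRE1 splicing, varied most between mice in absolute level, from 208 to 472 CPM in AAV-GFP mice (median 281) and from 201 to 414 CPM in AAV-Notum mice (median 223). The high mice were of both groups, namely AAV-GFP S_2012 (472 CPM) and S_2014 (361 CPM) and AAV-Notum S_2033 (414 CPM) and S_2042 (337 CPM). The difference, a log2 fold change of -0.17 (standard error 0.244, exact permutation p = 0.522), was close to 0 without AAV-GFP mouse S_2012 (-0.0030) and -0.34 without AAV-Notum mouse S_2033, and it was 0.11 with the lymphoid covariate. Reads per gene do not separate spliced from unspliced Xbp1.

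Atf4 (ENSMUSG00000042406, chromosome 15, 80255184 to 80257541), the factor of the PERK arm, ran from 118 to 140 CPM in AAV-GFP mice (median 132) and from 117 to 162 CPM in AAV-Notum mice (median 141). The AAV-Notum values were wider, with 3 mice above every AAV-GFP mouse and AAV-Notum mouse S_2031 below all of them. Atf4 had a log2 fold change of 0.10 (standard error 0.093, exact permutation p = 0.325), which was 0.056 without AAV-Notum mouse S_2034 and 0.067 without S_2033. ATF4 protein is set largely at translation, which mRNA levels do not show.

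Ddit3 (ENSMUSG00000025408, chromosome 10, 127290774 to 127296288) encodes CHOP, the factor of prolonged ER stress. It ran from 14.9 to 21.9 CPM in AAV-GFP mice (median 17.8) and from 16.7 to 21.7 CPM in AAV-Notum mice (median 18.0). AAV-GFP mouse S_2011 lay just above every AAV-Notum mouse and S_2013 below all of them, and the other 4 within their range. Ddit3 had a log2 fold change of 0.03 (standard error 0.10, exact permutation p = 0.725). Ddit3 shares 68 exon bases with Mars on the opposite strand, and whether the counting used strand is not given in the sources used here.

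**Figure D2:**
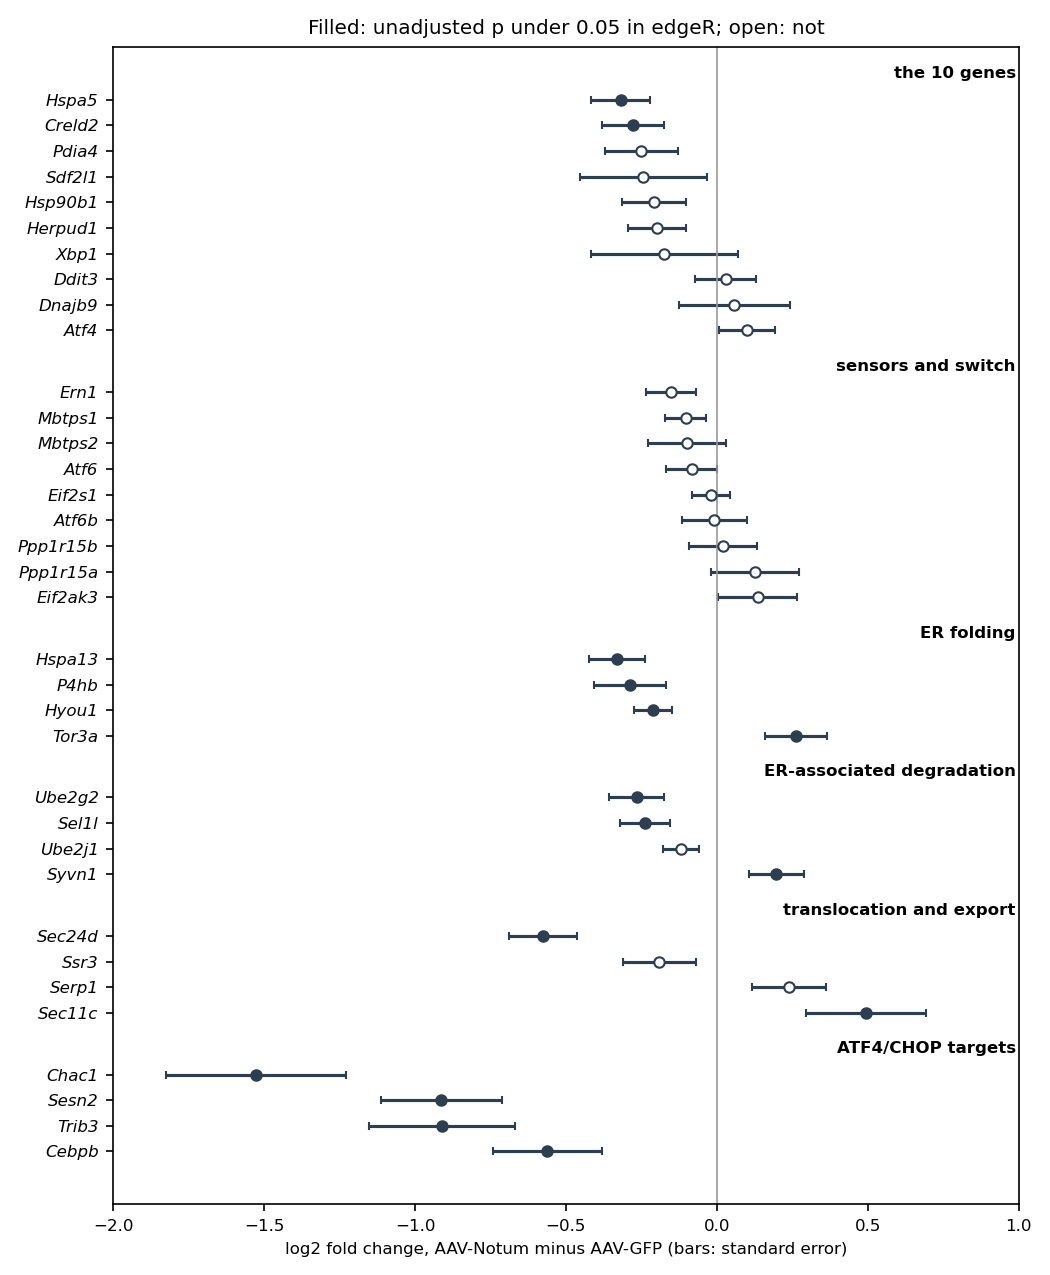
Log2 fold change (AAV-Notum against AAV-GFP, edgeR) of the 10 members and of the pathway genes named in the text, with bars of 1 standard error, a line at 0 and filled points where the unadjusted p was under 0.05. The members lie between -0.32 and 0.10, and Chac1, at -1.53, lies farthest from 0.

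Per kilobase of exon, the members' mean levels in AAV-GFP mice spanned from 10.6 to 140.1 CPM. On the count table the order of the mean levels was Hsp90b1 (140.1), Hspa5 (120.0), Xbp1 (93.2), Pdia4 (76.8), Atf4 (55.3), Herpud1 (38.0), Creld2 (21.2), Dnajb9 (13.6), Sdf2l1 (12.9) and Ddit3 (10.6). Herpud1 was apart from both of its neighbours over all 12 mice, with no overlap with Atf4 above it or Creld2 below it. Hsp90b1 was above Hspa5 in 12 of 12 mice on the count table, but in only 8 of 12 on the reads behind the normalized table, where the AAV-GFP means were 2050 reads per kilobase for Hsp90b1 and 2130 for Hspa5. The order of these 2 genes therefore depends on the table. Dnajb9 was above Sdf2l1 in 6 of 12 mice, so that these last levels are not told apart. The lengths are those of the merged exons of the annotation, and transcripts of other length would move these levels.

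Beside the contrast, the members also varied from mouse to mouse. With the group means removed, the 45 pairs of members had a median Pearson r of log2 CPM of 0.355 over 12 mice, with 35 pairs positive and 10 negative. Without AAV-GFP mice S_2011 and S_2014 the median was 0.327, with 29 of 45 pairs positive, and Sdf2l1 with Creld2 went from 0.385 to -0.300. The mice share no library, but the same depth and cell composition enters all genes of a mouse. The median over pairs of other genes was not computed, so that these values have no reference. Hsp90b1 and Dnajb9 had the highest r (0.865, Spearman's rho 0.811), and Hspa5 went with Hsp90b1 (r 0.743, rho 0.776) and with Pdia4 (r 0.729, rho 0.762). Pdia4 also went with Xbp1 (r 0.802, rho 0.713). Sdf2l1 and Herpud1 formed another pair (r 0.769, rho 0.713). The lowest values were -0.671 between Sdf2l1 and Xbp1 (rho -0.832) and -0.622 between Ddit3 and Herpud1 (rho -0.580). Without AAV-GFP mice S_2011 and S_2014, these 7 values kept their sign over 10 mice, at 0.902, 0.897, 0.745, 0.831, 0.593, -0.726 and -0.771 in the same order. These pairs were picked as the highest and lowest of 45 and are given as a description.

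**Figure D3:**
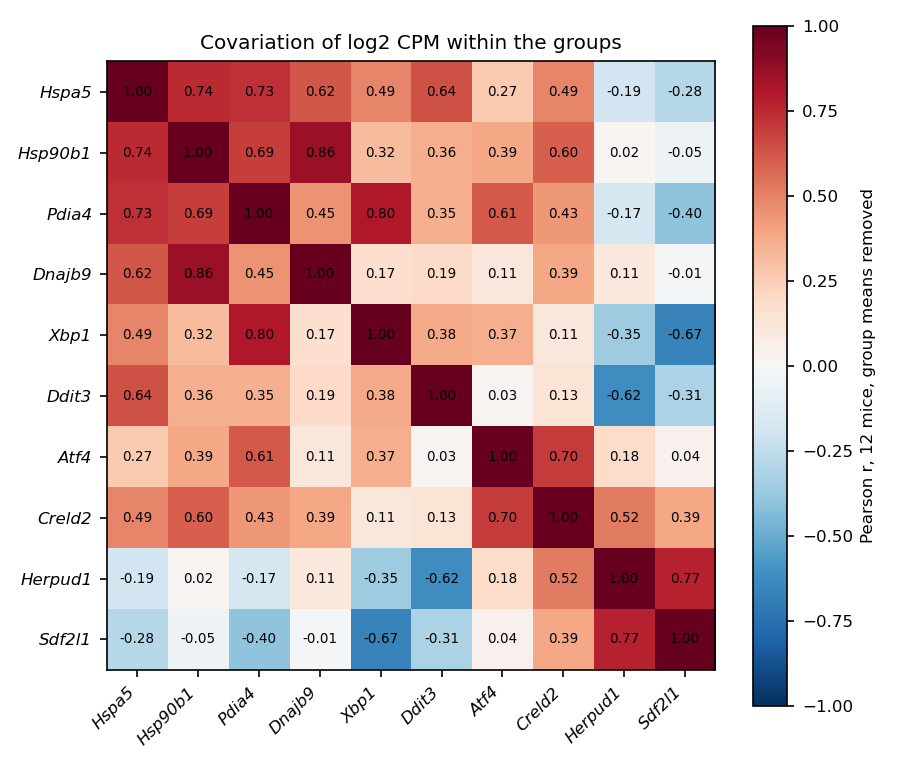
Pearson r of log2 CPM between each pair of the 10 members over 12 mice, with the group means removed, on a colour scale from -1 (blue) to 1 (red). The chaperones Hspa5, Hsp90b1, Pdia4 and Dnajb9 are positive with each other, and Herpud1 and Sdf2l1 form a separate pair.

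Among the other 15584 genes tested, the 3 nearest to each member by the same measure held no other member. The nearest to Hspa5 were Klf10 (r 0.920), 9930014A18Rik (0.913) and Lilra5 (0.911). The highest values were those of Sdf2l1, with Slc15a3 (0.987), Zfp408 (0.987) and Tgif1 (0.984). Xbp1 was nearest to Net1 (0.983), Gm48832 (0.978) and Cyp4f17 (0.969). The nearest to Pdia4 were Anxa8 (0.974), Ppa1 (0.960) and Peg3 (0.952), and those to Hsp90b1 were A330023F24Rik (0.946), Naa35 (0.914) and Snhg5 (0.898). Creld2 was nearest to Gm47204 (0.933), Metrnl (0.870) and P2rx4 (0.868), and Atf4 to Cyb5rl (0.921), Gdpd3 (0.908) and Pcdhb10 (0.902). Ddit3 was nearest to Mgl2 (0.930), Col6a3 (0.918) and Acta2 (0.888), Herpud1 to Trabd (0.949), Rab20 (0.935) and Riox1 (0.931), and Dnajb9 to St3gal6 (0.931), Tuba8 (0.920) and Bhlhb9 (0.912). With 15584 candidates and 12 mice, values this high are read as a description.

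The other genes of the pathway were taken from 5 lists with 103 genes, of which 102 were tested (Fgf21 was not). At an edgeR p under 0.05 before adjustment 15 were lower and 3 were higher in AAV-Notum mice (against 9.54% and 4.64% of all genes), or 16 and 2 by the exact permutation test, and none passed an adjusted threshold in edgeR. DESeq2 called 6 as lower after adjustment (against 2.61% of all genes), namely Chac1, Sesn2, Trib3, Hspa13, Hyou1 and Sec24d. The median log2 fold change of the 102 genes was -0.088, against 0.0077 for all genes tested. The 5 lists were chosen with earlier results of these data known, so that their counts beside all genes are a description.

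None of the 9 sensors and regulators was under 0.05, and their median log2 fold change was -0.020. Ern1 (IRE1) was at 34.9 ± 3.66 and 31.4 ± 2.45 CPM (SD, n = 6; log2 fold change -0.15, exact permutation p = 0.0736), Eif2ak3 (PERK) at 35.6 ± 5.37 and 39.0 ± 6.55 CPM (0.14) and Atf6 at 67.1 ± 7.57 and 63.3 ± 4.38 CPM (-0.083). The site proteases that release ATF6, Mbtps1 and Mbtps2, had log2 fold changes of -0.10 and -0.10, and Atf6b had -0.0090. Eif2s1, the translation factor that PERK phosphorylates, had -0.020, and the phosphatase subunits that reverse this, Ppp1r15a and Ppp1r15b, had 0.13 and 0.020. The groups overlapped for all 9 genes. Ern1 was under 0.05 in edgeR before adjustment with the lymphoid covariate (-0.22), without AAV-GFP mice S_2011 and S_2014 (-0.21) and without AAV-Notum mouse S_2041, as was Mbtps1 without AAV-GFP mouse S_2013.

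Of 24 folding genes, 5 were lower and 1 was higher at an edgeR p under 0.05 (median log2 fold change -0.053), against 9.54% and 4.64% of all genes. DESeq2 called 2 of the 24 as lower after adjustment, against 2.61% of all genes. The 5 lower genes became 2, Hspa13 and Hyou1, with RIN or the lymphoid level as a covariate and without any 1 of AAV-GFP mice S_2011 and S_2012 and AAV-Notum mice S_2031 and S_2032. They became 3 with library totals alone, with no filter on low counts, and without AAV-Notum mouse S_2034 or S_2041. Without AAV-GFP mouse S_2014, left out alone or with S_2011, the lower genes were Hspa13, Hyou1 and Manf. Manf was none of the 5. Hspa13, an Hsp70 relative of the ER, was at 28.5 ± 3.04 and 22.7 ± 2.25 CPM (SD, n = 6; log2 fold change -0.33, edgeR adjusted p = 0.166, exact permutation p = 0.00866, DESeq2 adjusted p = 0.0188). Hyou1, the nucleotide exchange factor of BiP, was at 114 ± 7.23 and 98.7 ± 5.05 CPM (log2 fold change -0.21, edgeR adjusted p = 0.179, exact permutation p = 0.00433, DESeq2 adjusted p = 0.0385), and with library totals alone it had -0.16, not under 0.05 before adjustment. P4hb, the main disulfide isomerase, had -0.29 (exact permutation p = 0.0390), and Tor3a, an ER ATPase, had 0.26 (p = 0.0238). P4hb was -0.19 with RIN as a covariate, -0.099 with the lymphoid covariate and -0.16 without AAV-GFP mice S_2011 and S_2014, no longer under 0.05 in edgeR before adjustment in these fits, and Tor3a was 0.21 and 0.26 in the last 2 of them, also above 0.05. The other lower folding genes, named after their values were seen, were the co-chaperone Dnajc3 (-0.18) and the disulfide isomerase Pdia6 (-0.29), neither of them under 0.05 with either covariate or without AAV-GFP mice S_2011 and S_2014. Of the 20 degradation genes, 2 were lower and 1 was higher, close to the 9.54% and 4.64% of all genes, and 18 had a log2 fold change below 0 (median -0.10), against 48.8% of all genes. The conjugating enzyme Ube2g2 had -0.27 and the scaffold Sel1l -0.24 (exact permutation p = 0.0173 and 0.0130), whereas the ubiquitin ligase partner of Sel1l, Syvn1, had 0.20 (p = 0.0519). Another conjugating enzyme, Ube2j1, had -0.12 (exact permutation p = 0.0390). Without AAV-GFP mouse S_2013 edgeR put 4 degradation genes lower, Edem1 and Ube2j1 beside Sel1l and Ube2g2. With the lymphoid covariate and without both mice, Ube2g2 was -0.19 and -0.20, Sel1l -0.11 and -0.15 and Syvn1 0.10 and 0.14, none of them under 0.05 in edgeR before adjustment. Syvn1 was also above 0.05 with limma-voom, limma on the normalized values, RLE size factors, library totals alone, no filter and RIN. With 1 mouse left out, Syvn1 was under 0.05 only without AAV-GFP mouse S_2022 or AAV-Notum mouse S_2041 or S_2042. Ube2g2 was above 0.05 with library totals alone.

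Of the 20 translocation and transport genes, 1 was lower and 1 was higher (median log2 fold change -0.059), against 9.54% and 4.64% of all genes. Sec24d, a cargo subunit of the vesicle coat that carries procollagen and other proteins out of the ER, ran from 44.95 to 71.2 CPM in AAV-GFP mice (median 55.4) and from 35.1 to 42.9 CPM in AAV-Notum mice (median 36.1). The groups did not overlap. For Sec24d edgeR gave a log2 fold change of -0.58 (SE 0.112, adjusted p = 0.101, DESeq2 adjusted p = 6.46e-04), and the exact permutation p was 0.00216, the smallest possible with groups of 6. Sec11c, a subunit of the signal peptidase, had 0.49 (exact permutation p = 0.0390), Serp1, a partner of the translocon, 0.24 (p = 0.0909) and Ssr3, of the translocon-associated complex, -0.19 (p = 0.141). Without AAV-Notum mouse S_2042 edgeR put 3 of these genes lower, Ssr3 and Sec62 beside Sec24d. Without AAV-GFP mouse S_2013 or AAV-Notum mouse S_2033, Serp1 was higher beside Sec11c. No gene of this list was higher without AAV-GFP mouse S_2011, S_2012 or S_2014 or AAV-Notum mouse S_2031 or S_2032. Sec11c was 0.39 with RIN as a covariate, 0.17 with the lymphoid covariate, 0.30 without AAV-GFP mice S_2011 and S_2014 and 0.54 with library totals alone, above 0.05 in edgeR before adjustment in each.

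Of the 5 lists, the targets of ATF4 and CHOP held both the most negative and the most positive log2 fold change (-1.53 and 0.79), beside 0.10 and 0.03 for Atf4 and Ddit3 themselves. Of 30 genes 29 were tested, and 7 were lower and 0 were higher at an edgeR p under 0.05, against 9.54% and 4.64% of all genes. The log2 fold change was below 0 for 20 and above 0 for 9, with a median of -0.25. The most positive values, named after they were seen, were those of the amino acid transporters Slc7a11 (0.79, standard error 0.927), Slc7a5 (0.60, standard error 0.563) and Slc7a1 (0.43, standard error 0.353) and of the mitochondrial folate enzyme Mthfd2 (0.61, standard error 0.450), none of them under 0.05 in edgeR with all 12 mice. Before adjustment limma-voom put Slc7a11 under 0.05, as edgeR did Mthfd2 without AAV-GFP mouse S_2022. Chac1, which degrades glutathione, ran from 4.75 to 9.77 CPM in AAV-GFP mice (median 7.40) and from 1.15 to 4.14 CPM in AAV-Notum mice (median 2.33). Again the groups did not overlap. Chac1 had a log2 fold change of -1.53 (standard error 0.299, edgeR adjusted p = 0.101, DESeq2 adjusted p = 1.15e-04, exact permutation p = 0.00216), at 22 to 164 reads per mouse.

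Sesn2, a stress-inducible inhibitor of mTORC1, ran from 37.3 to 81.3 CPM in AAV-GFP mice (median 45.8) and from 25.1 to 35.1 CPM in AAV-Notum mice (median 28.4), again with the groups apart. Its log2 fold change was -0.91 (edgeR adjusted p = 0.117, DESeq2 adjusted p = 0.00262, exact permutation p = 0.00216). Trib3, a pseudokinase induced by CHOP, was at 10.4 ± 3.70 and 5.52 ± 0.995 CPM (SD, n = 6; log2 fold change -0.91, exact permutation p = 0.0130, edgeR adjusted p = 0.152, DESeq2 adjusted p = 0.0157). Its groups overlapped, since AAV-GFP mouse S_2022 was at 5.05 CPM. Cebpb, a partner of ATF4 and CHOP, was at 72.5 ± 18.9 and 49.2 ± 9.56 CPM (log2 fold change -0.56, exact permutation p = 0.0173, edgeR adjusted p = 0.214). The other 3 lower genes, named after their values were seen, were Phgdh (-0.61) and Pycr1 (-0.63), enzymes of serine and proline synthesis, and the factor Atf5 (-0.39). None of these 3 was under 0.05 in edgeR with RIN or the lymphoid level as a covariate or without AAV-GFP mice S_2011 and S_2014, and Phgdh and Atf5 had an exact permutation p of 0.0584 and 0.0952. The count of 7 lower targets was 4 with RIN and 4 without both mice. In the 29 genes the groups did not overlap for 2, both lower, against 0.693% of all genes.

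**Figure D4:**
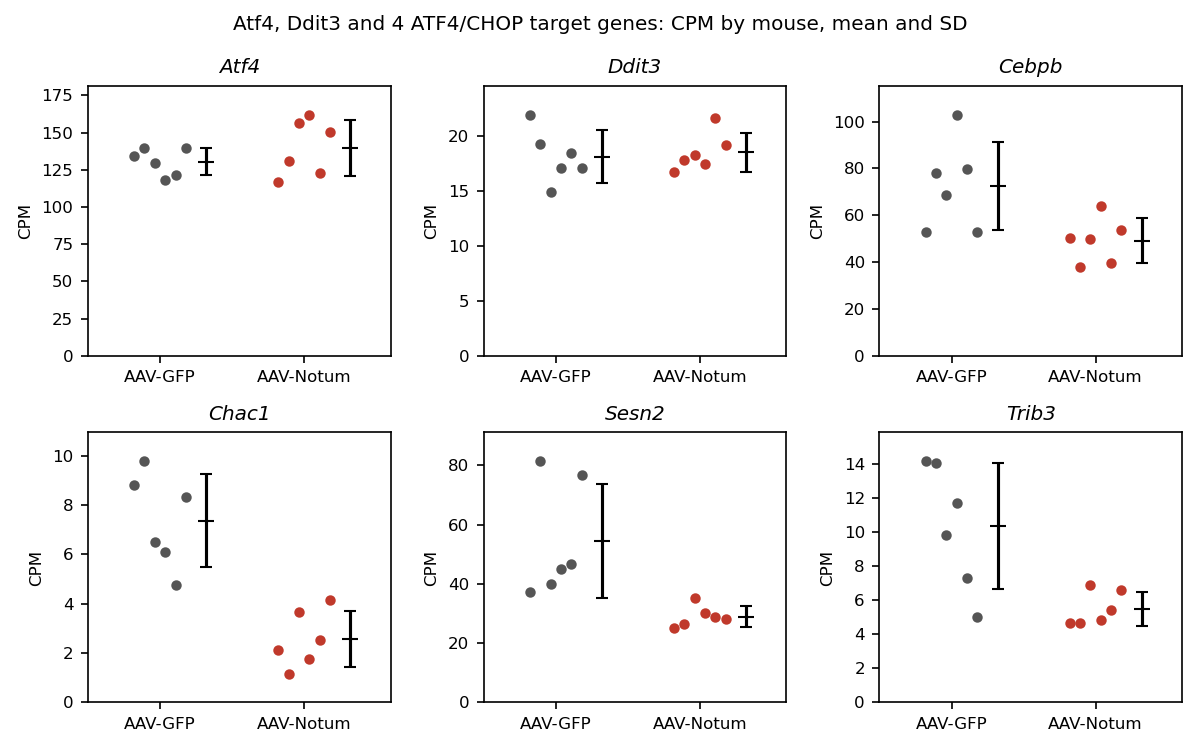
CPM by mouse, from 0, of Atf4, Ddit3 and the 4 genes of smallest p among their targets, with AAV-GFP in grey, AAV-Notum in red and bars for mean and SD (n = 6). Atf4 and Ddit3 overlap between the groups, while for Chac1 and Sesn2 the highest AAV-Notum mouse lies under the lowest AAV-GFP mouse.

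The markers of other cell types differed widely between mice. Lymphoid markers summed to 9.95 to 1688 CPM in AAV-GFP mice and to 552 to 2389 CPM in AAV-Notum mice, and those of plasma cells, which hold much ER, to 296 to 1566 and 525 to 1724 CPM. The plasma cell sums were mostly those of 2 antibody genes, Ighm (266.65 to 1043.5 CPM over all mice) and Igkc (1.669 to 544 CPM). Of the other plasma cell markers, Jchain ran from 0.656 to 33.9 CPM and Mzb1 from 0.119 to 24.4 CPM. At an edgeR p under 0.05, 0 of 15 lymphoid and 0 of 9 tested plasma cell markers were called (0 by DESeq2 after adjustment), and 15 of 15 and 7 of 9 had a log2 fold change above 0. Of the fibroblast and progenitor markers 4 of 10 were lower, as were 4 of 10 endothelial, 2 of 10 macrophage and 2 of 10 hepatocyte markers, and 0 of 10 adipocyte markers, against 9.54% of all genes. By the exact permutation test before adjustment the counts were 4, 1, 1, 0 and 0 in the same order, against 7.79% of all genes. By DESeq2 after adjustment they were 3, 0, 1, 0 and 0, against 2.61%. The log2 fold change was below 0 for 8 of 10 adipocyte markers (median -0.255) and 8 of 10 fibroblast and progenitor markers (median -0.283). It was also below 0 for 9 of 10 endothelial (median -0.328) and 7 of 10 macrophage markers (median -0.104), against 48.8% of all genes. The members had 7 of 10 below 0 (median -0.202). Of the hepatocyte markers 9 of 10 had a log2 fold change below 0 (median -2.79), with the highest mean log2 CPM in AAV-GFP mice S_2013 (8.58) and S_2014 (7.12) and AAV-Notum mouse S_2041 (6.33) against 5.28 or less in the others. Of the muscle markers 9 of 9 tested had one above 0 (median 1.38). Their mean log2 CPM was highest in AAV-Notum mouse S_2042 (8.25). Its median over mice went the other way, at 3.25 in AAV-GFP and 1.99 in AAV-Notum. No marker of these lists was at 0 reads in all mice. Their part in the differences of the members was not tested beyond the lymphoid covariate, with which the log2 fold change of Hspa5 was -0.24 (edgeR adjusted p = 0.537) and that of Creld2 -0.32 (edgeR adjusted p = 0.446). Without AAV-GFP mice S_2011 and S_2014 Hspa5 had -0.29 (edgeR adjusted p = 0.637) and Creld2 -0.34 (edgeR adjusted p = 0.462), and all 4 values were under 0.05 before adjustment. In those fits Chac1 was at -1.40 and -1.52, Sesn2 at -1.05 and -1.08 and Trib3 at -0.54 and -0.72.

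**Figure D5:**
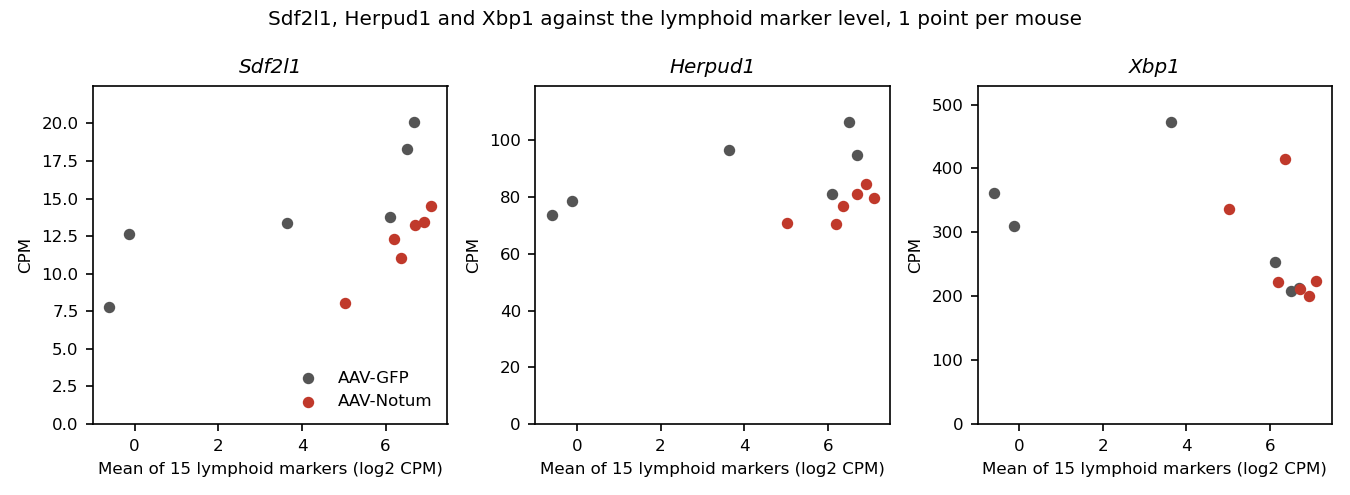
CPM of Sdf2l1, Herpud1 and Xbp1 in each mouse, from 0, against the mean log2 CPM of 15 lymphoid markers, with AAV-GFP in grey and AAV-Notum in red. The grey points at the left, below 0 on the log2 scale, are AAV-GFP mice S_2011 and S_2014, which have the lowest Sdf2l1 and Herpud1 of their group.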

How the data were processed

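Total RNA of iWAT was sequenced by the authors from TruSeq libraries as single-end reads on a HiSeq4000 and mapped to mm10 with STAR 2.3.1, per the paper's methods and the submitters' processing notes. The program and annotation behind the counts are not given in the sources used here. The deposited counts are whole reads per gene. The other table, also deposited by the authors, is on the log2 scale (reads over a size factor, plus 1), and from it whole reads were recovered for 100% of values (tolerance 0.02). Both tables share 31137 genes, and 6725 of them have the same reads in all mice.

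Groups came from the sample labels, and each sample is a separate mouse. Genes with few reads were removed by filterByExpr (a count of at least 10 and a total of at least 15), counts were normalized by TMM and fitted in R 4.3.3 with edgeR 4.0.16 (quasi-likelihood test, two-sided, 6 against 6, Benjamini-Hochberg adjustment over 15585 genes, threshold 0.05). CPM used the TMM library size, and log2 CPM a prior count of 2. Permutation tests were exact and two-sided over 924 assignments of the mice, on the difference of mean log2 CPM. Correlations used log2 CPM less the group mean. Positions and exon lengths are those of GENCODE vM21 on GRCm38, and promoters those of RefSeq (GRCm38.p6). The fits were tested on simulated counts, where edgeR and, more so, DESeq2 made more false calls after adjustment than the threshold allows. No 2 columns held identical values.

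Named genes were the 10 members, the 9 sensors, the 4 genes of smallest p in each other list and the 3 genes nearest to each member. The members and lists were chosen with earlier results of these data known. Alternatives were DESeq2 1.42.0, limma-voom and limma on the normalized values (limma 3.58.1), RLE size factors, library totals alone, no filter, a robust fit, a minimum of 10 counts in every mouse, RIN or the lymphoid marker level as a covariate, the recovered reads, a prior count of 0.5, and each mouse, or AAV-GFP mice S_2011 and S_2014 together, left out. Python 3.11.15 with matplotlib 3.10.9 drew the figures.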

Additional observations from a re-analysis of the deposited data

How the results depend on the processing

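Before adjustment, 2 of the 10 members were lower at the threshold of 0.05 in edgeR. The count was 4 with DESeq2 (Creld2, Hsp90b1, Hspa5 and Pdia4), 1 with library totals alone, 4 with the lymphoid marker level as a covariate and 4 without AAV-GFP mice S_2011 and S_2014 (Creld2, Herpud1, Hspa5 and Sdf2l1 in both). Each mouse left out in turn gave 2 to 4, the highest without AAV-Notum mouse S_2042, and the exact permutation test gave 1 to 4 (4 without AAV-GFP mouse S_2014 or AAV-Notum mouse S_2042, 1 without AAV-GFP mouse S_2011, S_2012, S_2013 or S_2022 or AAV-Notum mouse S_2031 or S_2032, where Creld2 was lost; without AAV-Notum mouse S_2041 Hsp90b1 stood in place of Creld2). After adjustment the count was 0, and 1 with DESeq2, with 0 to 0 over the mice left out. No alternative gave a member higher at an unadjusted p under 0.05 (0 to 0 over the mice left out).

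Of the other pathway genes, 15 were lower, against 9 each with RIN or the lymphoid level as a covariate or without both mice, and 11 to 21 with each mouse left out. The count of higher genes was 3 (Sec11c, Syvn1 and Tor3a), against 0 with library totals alone, 1 with RIN (Tor3a), 1 each with the lymphoid level and without both mice (Psph in both, which is none of the 3), and 0 to 4 with each mouse left out. After adjustment 0 passed, against 6 with DESeq2, 1 with library totals alone and 0 to 2 with each mouse left out (Sec24d and Trib3 without AAV-GFP mouse S_2022).

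Over all genes, 1487 were lower and 723 higher before adjustment. The lower count was 928 with RIN, 763 with the lymphoid level and 792 without both mice (1053 to 2138 with each mouse left out). The higher count was 1462 with limma-voom, 1273 without a filter, 464 with RIN, 1147 with limma on the normalized values and 345 without both mice (455 to 1625). After adjustment 8 were lower, against 407 with DESeq2, 13 with RLE, 43 with library totals, 5 without a filter, 14 with at least 10 counts in every mouse, 4 with the lymphoid level, 4 with limma on the normalized values and 1 without both mice (1 to 146, the highest without AAV-GFP mouse S_2022). After adjustment 0 were higher, against 91 with DESeq2, 1 with RLE, 2 with library totals, 1 with at least 10 counts in every mouse and 1 with the recovered reads (0 to 12, the highest without the same mouse).

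Log2 fold changes near 0 changed sign. With the lymphoid covariate Xbp1 was 0.11, Eif2ak3 -0.052, Atf6 0.021, Ppp1r15a -0.060, Eif2s1 0.0022 and Ppp1r15b -0.0027. With RIN Dnajb9 was -0.012 and Ppp1r15b -0.022. Without both mice Dnajb9 was -0.056, Ppp1r15a -0.015 and Ppp1r15b -0.055. With library totals Eif2s1 was 0.029 and Atf6b 0.059, and Atf6b was 0.0023 without a filter and 0.0074 with at least 10 counts in every mouse. With each mouse left out, Ddit3 ran from -0.021 to 0.091, Dnajb9 from -0.055 to 0.14, Eif2s1 from -0.051 to 0.0083, Ppp1r15b from -0.046 to 0.091 and Atf6b from -0.063 to 0.060. The cause of these shifts was not tested. No paired analysis was possible because the mice of the groups carry different numbers. Genes with few reads, such as Sdf2l1 among the members and Pycr1 and Chac1 among the others, carry more counting error.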
